A study of Mus musculus with 2031 samples.

Results

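AST4 is an astrocyte type defined by clustering of single cells from the adult mouse cortex and hippocampus, and its members are those cells to which the cell list of the study gives that name. There were 91 AST4 cells among 1781 typed astrocytes and 2030 cells with counts. Of these, 33 cells, all from the cortex, were not in the copy of the cell list used here and stayed untyped, so shares of typed astrocytes leave them out. The cells came from C57BL/6J mice at postnatal day 56, from 2 cortical suspensions named 1C and 2C and 2 hippocampal suspensions named 1H and 2H. The labels give no transgene and no treatment. Each hippocampal suspension pooled littermates, the litters differed between them, and the papain-dissociated cells were sorted with the ACSA-2 antibody against the membrane protein Atp1b2, without cells positive for the oligodendrocyte antigen O1, and processed by Smart-seq2 in single wells. Of the AST4 cells, 41 were in 1H, 48 in 2H, 2 in 1C and 0 in 2C. All comparisons below are therefore between the 89 hippocampal AST4 cells and the 732 other typed astrocytes of the same 2 suspensions, of which 545 were AST1 and most of the rest AST3.

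The adult dentate gyrus keeps a niche of radial glia-like neural stem cells, which share much of their expression with astrocytes, including the glutamate transporter Slc1a3 and the filament protein Gfap. Such cells divide rarely and give rise to intermediate progenitors and neuroblasts that become granule neurons. Wnt and Notch signals are known regulators of this niche.

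AST4 cells were spread over all 16 hippocampal plates. Their share of typed astrocytes was lowest on plates 38 and 138, at 2 of 52 cells or 3.85% each, and highest on plate 58, at 4 of only 13 cells or 30.8% (95% Wilson interval 12.7% to 57.6%). On plate 188, the next highest, it was 12 of 61 cells or 19.7% (11.6% to 31.3%). AST4 cells had 695918 to 3021112 gene counts, with a median of 1405690. Every count is a sequenced read and not a molecule, because Smart-seq2 adds no molecular tags, so intervals cover counting error only. Levels are given as CPM, counts divided by the gene counts of the cell and scaled to a common total, as is usual for this unit, averaged over the cells of a suspension.

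Several cells stood apart within AST4 and are given before the results. In 2H, 2 AST4 cells held Ptgds, which encodes prostaglandin D2 synthase, at 80899 and 129943 CPM. Both also held all 10 genes of a fibroblast and meningeal list at 10 CPM or more, a list chosen after these values were seen. Dcn, a matrix proteoglycan, was at 9071 and 1733 CPM in them and Slc6a13, a GABA transporter of the meninges, at 6800 and 3802 CPM. No other AST4 cell and no other hippocampal astrocyte held more than 2 of the 10. Gfap, Sfrp1 and Aqp4 were at 0 CPM in both cells, while Slc1a3 was at 1914 and 1558 CPM. A further 2H cell held 7 of 8 ependymal markers at 10 CPM or more, with Ccdc153 at 3007 CPM and Tmem212 at 1661 CPM, and no other AST4 cell held more than 1. It had no count of Frzb, Sfrp1, Emx1 or Hmgn2. These 3 cells were kept in the main values and left out in a second set of values. A further 2 cells held transcripts of dividing cells and are described further on. The 2 cortical cells, on plates 75 and 95, held no Frzb, Emx1 or Lpar1, but Sfrp1 at 899 and 487.9 CPM and Gfap at 4821 and 622 CPM.

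The sequences of 4 short promoter stretches are shown because the genes are among the 15 with the largest ratios in AST4 and each stretch holds CAGCTG, an E-box motif, in capitals. The motif reads the same on both strands. The stretches are from RefSeq on build GRCm38.p6, 5′ to 3′ on the gene's own strand.
Frzb: gtgggaaggcgCAGCTGcgagccaaggc
Islr: gtttatttaggCAGCTGcctgggatagt
Samd5: ccagactgcccCAGCTGgggaacctcct
Tmem132b: ggggcggccggCAGCTGgcgctggccga

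The Frzb stretch is chr2:80447397-80447424 on the minus strand and its motif begins 17 bases before a start in RefSeq, which lies inside the gene span given by the GENCODE annotation used for gene positions here. The others are Islr at chr9:58158735-58158762 (minus strand), Samd5 at chr10:9675335-9675362 (minus strand) and Tmem132b at chr5:125532403-125532430 (plus strand, 4 bases before the RefSeq start, which also lies inside the GENCODE span). Of the 15 genes 10 had a promoter in the table, and 4 of these, 40%, held the motif between 250 bases before and 50 after a start. The share was 21.3% of 839 genes called higher in AST4, 23.2% of those called lower, 17.1% of 7269 compared and 18.3% of all 27025 genes with a promoter in the table. Genes called lower thus held the motif about as often as genes called higher. A match of letters is not a binding site.

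The 5 genes given as markers of AST4 were checked in each cell. Frzb (chr2:80411970-80447625 of GRCm38, minus strand, protein coding) encodes a secreted antagonist of Wnt ligands. Its mean level was 640 CPM in AST4 of 1H and 511.4 CPM in AST4 of 2H, against 8.83 and 2.51 CPM in the other astrocytes. A count of Frzb was found in 25 of 41 and 28 of 48 AST4 cells and in 0.82% of the 732 other cells. Sfrp1 (chr8:23411502-23449632, plus strand), a second secreted Wnt antagonist, was at 92.4 and 87.8 CPM against 1.78 and 3.59 CPM. It was found in 14 AST4 cells of each suspension. In 2H 1 of them, a cell with transcripts of dividing cells, held 1627 CPM and raised the mean.

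Emx1 (chr6:85187438-85204462, plus strand), a homeobox factor of the dorsal forebrain, was at 126.03 and 130 CPM in AST4 against 4.27 and 9.68 CPM. Hmgn2 (chr4:133964738-133968650, minus strand), a nucleosome-binding protein, was at 416.4 and 263.6 CPM against 67.6 and 57.8 CPM. Unlike the first 3 markers, Hmgn2 was also found in 34.8% of the other cells. Gfap (chr11:102887336-102900912, minus strand), the filament protein of astrocytes and radial glia, was at 2061 and 2095 CPM against 1033 and 954 CPM. Its log2 ratios were 1.00 and 1.13, and the 1H value fell just short of the 2-fold limit used here. Gfap differed among the comparison cells too, with 1176 and 1110 CPM in AST1 and 500.3 and 482.2 CPM in AST3.

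The markers did not occur in the same cells throughout. Frzb, Sfrp1 or Emx1 was found in 70 of 89 AST4 cells, or 78.7%, and in 25 of 732 others, or 3.42%. Of the 89 cells, 33 held 1 of the 3, 26 held 2, 11 held all 3 and 19 held none. Frzb and Sfrp1 were found together in 21 cells, where the product of their shares gives 16.7. The pair Frzb and Emx1 was found in 23 cells, against 22.03 from the shares. All 5 markers occurred together in 9 AST4 cells and in 0 others.

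**Figure D1:**
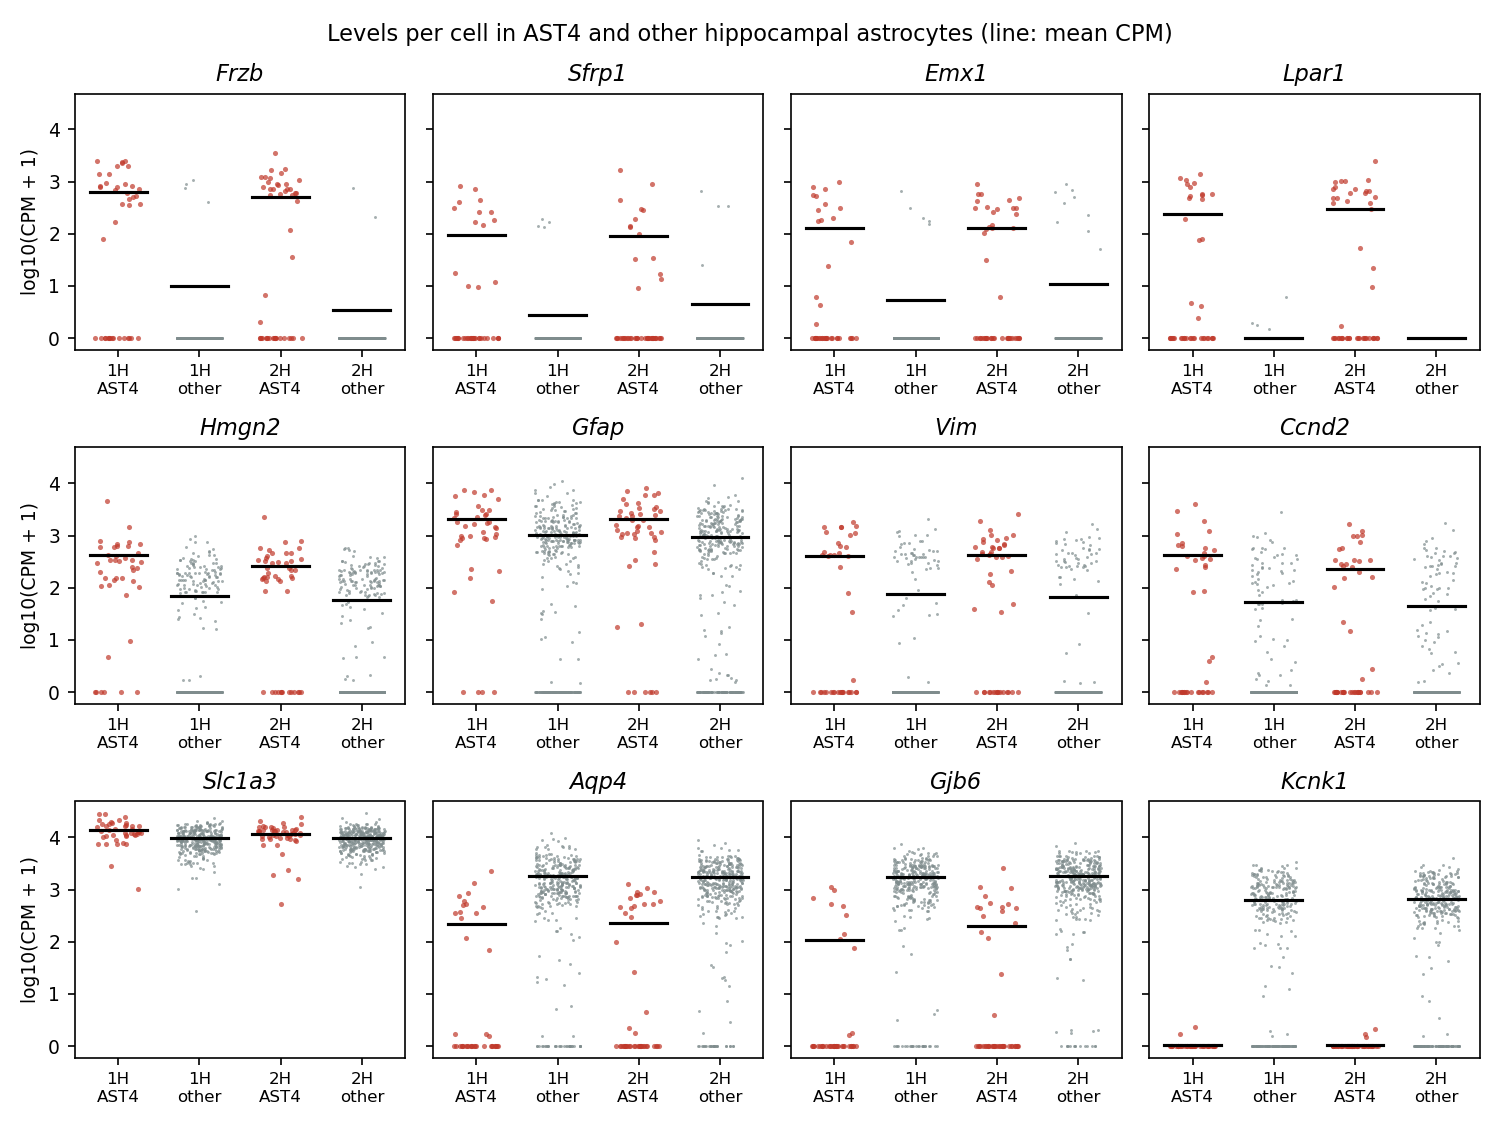
Each point is 1 cell, placed by suspension (1H, 2H) and group (AST4 in red, other hippocampal astrocytes in grey) on the x axis and by log10(CPM + 1) on the y axis, with a black line at the mean CPM, for 12 genes. Frzb, Sfrp1, Emx1 and Lpar1 are at 0 in many AST4 cells yet nearly absent from the others, Slc1a3 is high in all groups, and Kcnk1 is near 0 in AST4.

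AST4 was then compared gene by gene with the other hippocampal astrocytes within each suspension. Since AST4 was defined by clustering these same counts, the differences are a description and have no test. A gene was called when its mean CPM differed at least 2-fold in the same direction in both suspensions, among 9180 genes averaging 10 CPM or more over both groups. By this rule 1084 genes (11.8%) were higher in AST4 and 591 (6.44%) were lower. Of the higher genes 42.7% averaged under 10 CPM in the other astrocytes, and of the lower genes 48.6% did so in AST4. These passed the filter only through the group where they are high and so had to differ, and no count of members below is read as support for its list.

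The median log2 ratio of all genes compared was 0.23. Scaling by TMM factors (edgeR's trimmed mean of M-values) moved that median to -0.20 and the calls to 623 higher and 1018 lower. The share of calls that were higher thus went from 64.7% to 38.0%. Genes of low level were unsteady: between the AST4 cells of 1H and 2H themselves, 49.8% of genes at 10 to 50 CPM differed at least 2-fold, against 4.17% of those at 200 to 1000 CPM.

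**Figure D2:**
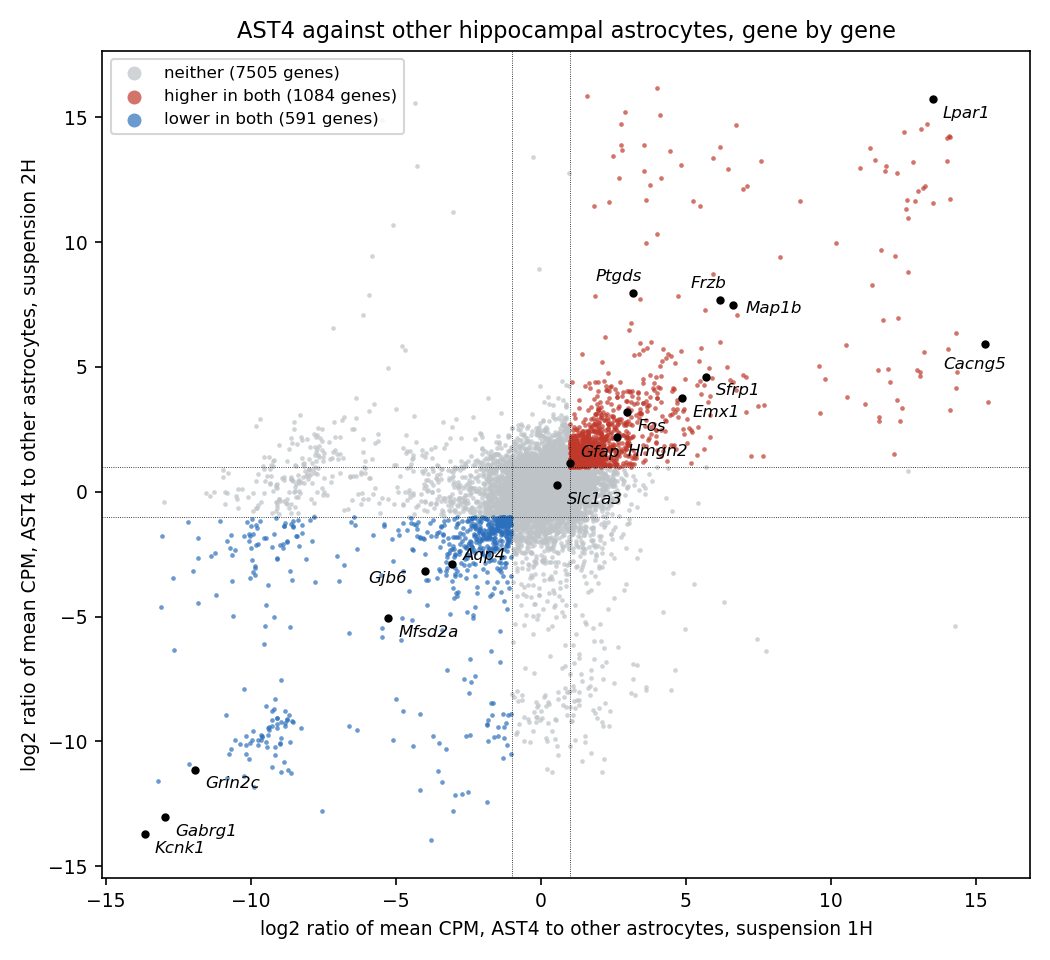
Each point is a gene of the 9180 compared, with its log2 ratio of mean CPM in AST4 to that in other astrocytes in 1H (x axis) and in 2H (y axis). The 1084 genes higher in both are red, the 591 lower in both are blue, and dotted lines mark 2-fold. Groups with 0 counts of a gene were set to a floor of 3 counts, as for Gabrg1 at the lower left.

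The genes with the largest ratios were nearly absent from other astrocytes. Lpar1 (chr4:58435255-58553898, minus strand), a receptor for lysophosphatidic acid known as a marker of dentate stem cells, was at 239.4 and 297.8 CPM in AST4. The other astrocytes held 7 Lpar1 reads in 1H, and in 2H 0 reads. A count was found in 18 of 41 and 23 of 48 AST4 cells. Lpar1 was also present in both Ptgds-high cells, at 473.9 and 2434 CPM, and in the ependymal-marker cell at 1003 CPM, and without these 3 cells the 2H mean was 230.8 CPM.

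Cacng5, an auxiliary subunit of AMPA receptors, was at 220.8 and 204.4 CPM against 0 and 3.33 CPM. Sowaha was at 92.6 and 222.9 CPM against 0 and 4.28 CPM. Islr, a secreted immunoglobulin-domain protein, was at 364.3 and 400.9 CPM against 7.17 and 2.60 CPM. 1500015O10Rik, which encodes the secreted augurin, was at 160.8 and 175.9 CPM against 2.60 and 0.42 CPM. These 4 genes were each found in 39.3% to 49.4% of AST4 cells and in under 1% of the others.

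Further genes of this group encode a transporter and a cytoskeletal protein. Slc38a1, a glutamine transporter, was at 275.1 and 327.6 CPM against 8.76 and 14.3 CPM. Map1b, a microtubule-associated protein of growing neurites, was at 278.1 and 216.99 CPM against 2.79 and 1.201 CPM.

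The remaining genes named by the rule for the largest ratios were Samd5, Adgrv1, Calcrl, Tmem132b and Tmem59l, with mean log2 ratios of 4.90 to 5.71. Calcrl, the calcitonin-like receptor of vascular cells, was at 165 and 137.3 CPM against 2.97 and 4.39 CPM. It was found in 11 and 14 AST4 cells, and endothelial markers summed to 0 to 1.27 CPM over all AST4 cells of 1H and to 0 to 33.7 CPM over those of 2H.

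Of 22 genes listed for radial glia-like stem cells, 20 passed the level filter, 12 were higher and 0 were lower on the CPM scale, with a median log2 ratio of 1.65 beside 0.23 for all genes. Of all genes compared 11.8% were higher and 6.44% lower. Under TMM 11 were higher and 1 lower, beside 6.79% and 11.1% of all genes. Of the 12 higher genes 6 had passed only through AST4. Hopx was at 118 and 105 CPM against 37.6 and 38.4 CPM. Thrsp, a regulator of lipogenesis known from adult neural stem cells, was at 1608 and 2060 CPM against 644 and 581 CPM. Notch2 was in all 41 AST4 cells of 1H and 47 of 48 in 2H, at 972 and 928 CPM against 265.5 and 307.04 CPM. Nes, the filament protein nestin, was found in only 3 and 6 AST4 cells, at 27.1 and 38.6 CPM, and had 0 reads in the 732 other cells. Sox2, at 40.8 and 40.6 CPM against 56.6 and 45.7 CPM, and Hes5, at 234.9 and 240.8 CPM against 213.4 and 178 CPM, were not called.

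Other filament and lipid-binding proteins of radial glia followed. Vim was at 400.7 and 415.2 CPM against 73.3 and 64.03 CPM. Fabp7, the brain fatty acid binding protein, was at 671 and 1000.5 CPM against 233.5 and 219.3 CPM. Both were found in over 60% of AST4 cells, at 60.7% for Vim and 87.6% for Fabp7.

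Among 15 genes listed for intermediate progenitors and neuroblasts, only 5 passed the filter. On the CPM scale 4 of them were higher and 0 lower, beside 11.8% and 6.44% of all genes. Under TMM 3 were higher and 0 lower, beside 6.79% and 11.1%. Of the 4, 2 had passed only through AST4. Prox1, the homeobox factor of the granule neuron lineage, was at 50.9 and 79.9 CPM against 13.02 and 8.29 CPM. Stmn1, a microtubule regulator, was at 146.2 and 52.1 CPM against 7.38 and 7.35 CPM. Eomes, the defining factor of intermediate progenitors, and Dcx, that of neuroblasts, had 0 reads in all 89 hippocampal AST4 cells.

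Of 21 forebrain patterning factors, 14 passed, 4 were higher and 1 was lower, beside 11.8% and 6.44% of all genes. The higher ones were Emx1, itself a marker of AST4, Prox1, which is also in the progenitor list, Dmrt3 and Zbtb20. Under TMM 3 were higher and 1 lower, beside 6.79% and 11.1%. Of the 4 higher genes 2 had passed only through AST4, and the lower gene only through the other astrocytes. Zbtb20, a factor of hippocampal identity, was at 1643 and 1540 CPM against 613 and 594 CPM and was counted in 39 of 41 and 48 of 48 AST4 cells, with a mean log2 ratio of 0.97 under TMM. Dmrt3 was at 56.8 and 73.02 CPM against 3.48 and 4.68 CPM. Meis2 was the lower gene, at 0 and 0.012 CPM against 23.995 and 28.5 CPM. Of 15 Sox and NFI factors 12 passed, with Sox1, Sox11 and Nfix higher and 0 lower, beside 11.8% and 6.44% of all genes. With TMM factors 2 were higher and 0 lower, beside 6.79% and 11.1%. Sox1 is also in the stem cell list and Sox11 in the progenitor list.

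In the Wnt pathway, 8 of 20 secreted modulators and ligands passed, and 4 were higher, beside 11.8% of all genes, of which 3 had passed only through AST4. Besides Frzb and Sfrp1 these were Dkk3, at 782 and 671 CPM against 383.9 and 327.7 CPM, and the ligand Wnt8b, at 69.8 and 48.1 CPM against 2.42 and 0 CPM. The call of Dkk3 was lost under TMM. Of 31 receptors and intracellular members 18 passed, with 1 higher, a smaller share than that of all genes, and 4 lower, beside 6.44% of all genes. Lef1, a nuclear effector of Wnt signals, was higher, at 20.6 and 26.8 CPM against 0.15 and 0 CPM. The receptors Fzd4, Fzd9, Lgr4 and Lgr6 were lower, and Lgr6 had 0 reads in AST4 against 51.4 and 71.4 CPM. Under TMM the secreted list had 3 members higher and 1 lower, and the receptor list 1 higher and 6 lower, beside 6.79% and 11.1% of all genes. Lef1 had passed only through AST4, and 2 of the 4 lower receptors only through the other astrocytes.

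Of 25 Notch pathway genes 15 passed, and Notch2 was higher and Dner, a Notch ligand of neurons and glia, lower, at 25.0 and 0.017 CPM against 340.6 and 271.8 CPM. With 1 of 15 each way, the list was near or below the 11.8% of all genes higher and 6.44% lower. The ligand Dll1 was counted in 5 AST4 cells of 2H alone, at a mean of 31.3 CPM, and had 0 reads in the other hippocampal astrocytes, but its mean over the groups was below the filter in this comparison. Of 21 BMP pathway and Id genes 13 passed, 0 were higher and 3 were lower, beside 6.44% of all genes lower, with list medians of -0.83 in 1H and 0.53 in 2H on the log2 scale. These were Acvr1 and the Id genes Id2, at 233.97 and 268.9 CPM against 973 and 1000 CPM, and Id3, at 287.4 and 263.8 CPM against 707 and 537.3 CPM. Without the 3 cells with markers of another type Id3 was no longer called, while the list as a whole had 4 lower members, as it had under TMM, where 11.1% of all genes were lower.

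**Figure D3:**
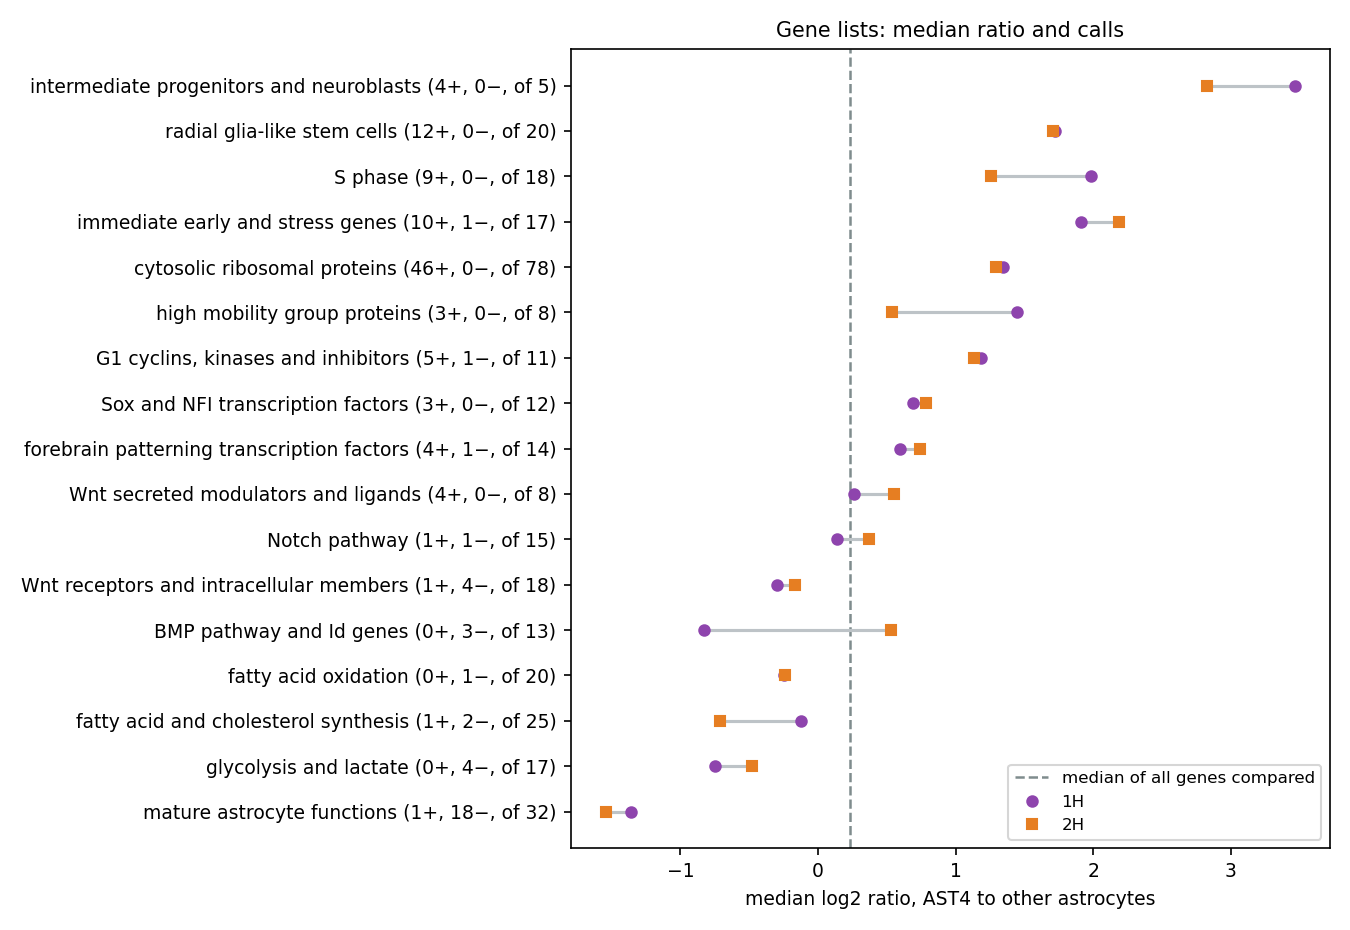
Each row is a gene list with at least 5 members past the level filter, with the median log2 ratio of AST4 to other astrocytes in 1H (purple circles) and 2H (orange squares). Numbers in brackets give the members called higher (+) and lower (−) of those that passed, and the dashed line is the median of all genes compared, 0.23. The G2 and M list and the list of the AST4 markers are not drawn, and in the other lists members that passed only through 1 group are included. The stem cell list lies at 1.73 and 1.71 and the mature astrocyte list at -1.36 and -1.54.

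Slc1a3 was counted in all 89 cells, at 13948 and 11757 CPM against 9544 and 9759 CPM, with a mean log2 ratio of 0.41 that became -0.02 under TMM. Atp1b2, the target of the sorting antibody, was at 1889 and 1751 CPM against 4908 and 5200 CPM. How the sort on this protein bears on the recovery of AST4 was not tested. Of 32 genes for functions of mature astrocytes, all 32 passed, 18 were lower and 1 was higher, beside 6.44% and 11.8% of all genes, and the median log2 ratio was -1.48, beside 0.23 for all genes. Under TMM 24 were lower, beside 11.1% of all genes.

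The lower genes included channels, gap junction proteins, transporters, enzymes and receptors. Aqp4, the water channel of astrocyte endfeet, was at 215.6 and 230.7 CPM against 1782 and 1702 CPM, and was counted in 42.7% of AST4 cells against 92.2%. Gjb6, a gap junction protein, was at 108.4 and 201.7 CPM against 1734 and 1812 CPM. The other astrocytic connexin, Gja1, was at 1351 and 1655 CPM against 7977 and 7777 CPM. Glul, glutamine synthetase, was at 205.7 and 226.9 CPM against 1072 and 1057 CPM, and Aldh1l1, a folate enzyme, at 50.3 and 118 CPM against 551 and 549 CPM. Sparc, a matrix glycoprotein, was the 1 higher member, at 1509 and 1598 CPM against 379.1 and 493.8 CPM. The glutamate transporter Slc1a2 was at 2884 and 2808 CPM against 5283 and 5339 CPM, short of the 2-fold limit.

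Several genes of the other astrocytes were near absent. Kcnk1 (chr8:125995170-126030685, plus strand), a potassium leak channel, had 2 reads in AST4 of 1H and 3 in AST4 of 2H. The other astrocytes averaged 637 and 652 CPM of it, with a count in 72.5% of cells. Gabrg1, a GABA-A receptor subunit, had 0 reads in AST4 against 380 and 358.4 CPM. At a floor of 3 reads over the group this was 7858-fold lower in 1H and 8303-fold lower in 2H. Reads are not molecules, so these folds are set by the floor and the depth and are not bounds. Ppp1r3g, a glycogen-targeting subunit of phosphatase 1, and the noncoding Gm13322 also had 0 reads in AST4.

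Grin2c, an NMDA receptor subunit, was at 0 and 0.10 CPM against 185 and 231.1 CPM. Pygm, glycogen phosphorylase of muscle and astrocytes, was at 0.049 and 4.22 CPM against 307.2 and 341.5 CPM. Mfsd2a, a transporter of lysolipids, was at 10.7 and 13.1 CPM against 410 and 435.9 CPM. Irak2, Atp13a4 and Mir124-2hg completed the 10 lower genes named by the rule, each with a count in at most 5 AST4 cells. In contrast to these genes, Kcnj10, the inward rectifier of astrocytes, was not called, at 228.8 and 192.02 CPM against 173.8 and 130 CPM.

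Of 17 glycolysis and lactate genes that passed, 4 were lower and 0 higher, beside 6.44% of all genes lower, and under TMM 7 were lower, beside 11.1%. Among them were Pfkp at 39.8 and 49.8 CPM against 378.5 and 350.6 CPM and Ldhb at 740 and 603 CPM against 1837 and 1866 CPM. Of 25 genes of fatty acid and cholesterol synthesis 2 were lower, a share near that of all genes, and 1, Thrsp, was higher, while under TMM 6 were lower and 0 higher, beside 11.1% and 6.79%. Of 20 genes of fatty acid oxidation 1 was lower, Ppara, also near the share of all genes, and under TMM 3 were.

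Ribosomal protein genes were listed by symbol after the data had been seen. Of 85 genes 78 passed, 46 were higher and 0 lower, beside 11.8% and 6.44% of all genes, with a median log2 ratio of 1.29. Under TMM 21 were higher and 0 lower, beside 6.79% of all genes higher. Their summed level had a median of 9878 CPM per AST4 cell against 4121 CPM per other cell. Many of these genes have processed pseudogenes of near-identical sequence, so single members are uncertain.

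Cell cycle genes were listed by phase. Of 19 genes for G1 cyclins, their kinases and inhibitors 11 passed, 5 were higher and 1 was lower, beside 11.8% and 6.44% of all genes. Under TMM 3 were higher and 1 lower, beside 6.79% and 11.1%. Of the 5 higher genes 2 had passed only through AST4. Ccnd2, a D-type cyclin, was at 426.6 and 224.8 CPM against 52.9 and 43.9 CPM, and Cdk6 at 106.2 and 72.99 CPM against 1.48 and 1.14 CPM. Of 30 S phase genes 18 passed, 9 were higher and 0 lower, beside 11.8% and 6.44% of all genes. With TMM factors 8 were higher and 0 lower, beside 6.79% and 11.1%. Of the 9, 7 had passed only through AST4. The list summed to a mean of 1277 and 645 CPM in AST4, and 1 cell held 16109.9 CPM. Pcna was counted in 8 and 15 AST4 cells and Mcm2 in 1 and 5.

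Transcripts of G2 and M phase were concentrated in 2 AST4 cells, the cells with at least 25% of the list at 10 CPM or more, and with a limit of 10% of the list there were 3. Of 38 listed genes, 25 were at 10 CPM or more in 1 cell of 1H and 26 in 1 cell of 2H, and the next highest AST4 cell held 4. The share was 2.25% of 89 AST4 cells (95% Wilson interval 0.618% to 7.83%). Among the 732 other astrocytes it was 0, which allows a share of up to 0.41% (3 cells of 732; the upper Wilson bound is 0.522%), and none held more than 2 of the genes. In the comparison of groups, which includes these 2 cells, 13 of the 38 genes passed the filter. The 11 of these that were higher had all passed only through AST4, so their count is not a result, and the median AST4 cell had a summed level of 0 CPM for the list. Mki67 was counted in both and at 0 in all other AST4 cells, and Top2a in the cell of 1H alone. Hmgn2 was high in both cells, at 4635 CPM in that of 1H and 2258 CPM in that of 2H. The cells differed in other genes. That of 1H held Emx1 at 987 CPM and no Frzb, and that of 2H held Frzb at 723 CPM, Sfrp1 at 1627 CPM and no Emx1.

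Lists of markers of other brain cells were summed. Per cell, the summed median was 0 CPM in both suspensions for the neuron, microglia, endothelial, mural and ependymal lists and the list of oligodendrocyte precursors. No AST4 cell held more than 3 genes of any of these lists at 10 CPM, apart from the 1 cell with ependymal markers. The highest sums were 1454 CPM for neurons, 1125 CPM for microglia and 1904 CPM for oligodendrocyte precursors. The mean sum of the neuron list was 78.3 and 73.3 CPM in AST4 against 20.8 and 14.3 CPM in the other astrocytes, and 1 of its 10 genes passed the filter and was not called. The part of neuronal RNA in other results was not tested. For oligodendrocytes the median was 0 and 1.70 CPM, and Mog, Mag and Cldn11 were at 0 reads. For the fibroblast and meningeal list it was 0 CPM in 1H and 106.2 CPM in 2H, against 0 CPM in the other astrocytes of each suspension. The mural list reached 16755 CPM in 1 of the Ptgds-high cells, through Vtn. Olig2, an oligodendrocyte lineage factor that hippocampal astrocytes can hold, had 0 reads in AST4 against 54.9 and 62.4 CPM.

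The genes with most transcripts per length were then ranked, in CPM per kilobase of summed exon length and without genes of the mitochondrial genome. Exon lengths came from a later GENCODE release than the one used for counting and are approximate. In a ranking of all genes, those of the mitochondrial genome included, 22 of the 30 leading genes were shared with a ranking without division by length. On this scale Apoe, the main lipid carrier of the brain, was first with 12226 CPM per kilobase. It was followed by Cst3, cystatin C, at 8730, and by Aldoc, the brain aldolase, at 3338 CPM per kilobase. Clu, a secreted chaperone, Ckb, brain creatine kinase, and Cpe, a carboxypeptidase, came next, between 2432 and 2115 CPM per kilobase. The ribosomal RNA transcript CT010467.1, at 4435, lay between Cst3 and Aldoc. Of the 20 leading genes, 15 were not called against the other astrocytes. Among all genes compared, 11.8% were called higher and 6.44% lower.

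The called genes among these 20 were Ptgds, Dbi and Tuba1a, which were higher, and Clu and Gpr37l1, which were lower. Dbi, an acyl-CoA binding protein, was at 1895 and 1791 CPM against 809 and 830 CPM. Tuba1a, an alpha tubulin of young neurons and glia, was at 1939 and 2029 CPM against 650 and 592 CPM. Gpr37l1, a receptor of mature astrocytes, was at 2452 and 2176 CPM against 7460 and 7856 CPM. Ptgds entered the list through the 2 cells named above: its 2H mean was 4588 CPM, against 200.1 CPM in 1H. In 1H, which held no such cell, Ptgds was also at least 2-fold higher than in the other astrocytes.

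A count in at least 95% of AST4 cells in both suspensions was found for 82 genes, 61 of them protein coding and nuclear, 8 mitochondrial and 10 pseudogenes. In all 89 cells 21 genes had a count. The other hippocampal astrocytes had 81 such genes, and 48 were in both sets, 58.5% of the AST4 set and 59.3% of the other. Notch2, Zbtb20 and Tuba1a were in the AST4 set, with a count in 87.7%, 84.8% and 79.6% of the other cells. In contrast to them Glul, found in 96.9% of other cells, fell short in AST4, with 24 of 41 and 33 of 48 cells.

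The number of genes detected comes from the clustered counts and is given as a description. At an equal depth of 500000 counts, AST4 cells had a median of 2237 genes in 1H and 2392.5 in 2H, against 1817.5 and 1872.5 in the other astrocytes. The mean difference was 470 genes ± 71.1 (SD, n = 2), and AST4 was higher on 16 of 16 plates. Without thinning the medians were 2396 and 2592.5 against 1974 and 2014 genes.

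A pair of measures that are not levels of single genes was tested over the 2 suspensions, with an exact two-sided sign-flip test whose smallest possible p is 0.5. The log2 ratio of gene counts to counts of the added ERCC RNA had medians of 4.64 and 4.81 in AST4 against 4.30 and 4.37. The difference was 0.39 ± 0.07 (SD, n = 2, exact p = 0.5), and AST4 was higher on 16 of 16 plates. Reads outside exons made up 11.6% and 12.2% against 13.6% and 13.5%, a difference of -1.67 ± 0.51 percentage points (SD, n = 2, exact p = 0.5), with AST4 lower on 13 of 16 plates. Among the comparison cells, AST3 had medians outside exons of 12.87% in 1H and 12.51% in 2H, nearer to AST4. In 2H the mean over cells was 12.96% in AST4 and 12.90% in AST3. The lower share thus did not set AST4 apart from AST3 in 2H. Against all other astrocytes the 2 suspensions pointed the same way in each measure, and the design cannot reach p = 0.05. AST4 cells also gave more gene counts per ERCC count, and the part of this in the number of genes was not tested.

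Differences within AST4 came next. Gene levels were compared with the spread usual at their level, as the residual of the squared coefficient of variation from its trend over 4147 genes averaging 50 CPM or more. In the top 5% of residuals in both suspensions were 47 genes. Of the 15 with the largest residuals, 7 were immediate early genes, which many stimuli induce within minutes: Fos, Jun, Junb, Egr1, Ier2, Btg2 and Dusp1. The variance of log2 values, as another measure of spread, called 92 genes, of which 1 was among the 47.

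Fos, a subunit of the AP-1 factor, was found in 16 of 41 and 18 of 48 AST4 cells and ranged from 0 to 11965 CPM, with a median of 0. Its means were 832 and 1269 CPM, against 104.5 and 140 CPM in other astrocytes. Jun was found in 23 and 28 cells, with means of 621 and 487.9 CPM against 80.04 and 90.99 CPM. Dusp1, a phosphatase of MAP kinases, reached 11012 CPM, with means of 592 and 599 CPM against 127.5 and 131.8 CPM. Over the whole list of 30 immediate early and stress genes 17 passed the filter, 10 were higher and Dusp6 was lower, beside 11.8% and 6.44% of all genes. Under TMM 8 were higher and 2 lower, beside 6.79% and 11.1%. Of the 10 higher genes 2 had passed only through AST4.

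The 7 genes were chosen for their spread within AST4, so their occurrence there is a description. Over the 17 members of the full list that passed, the median cell held 4 and 5 genes at 10 CPM or more in AST4 and 3 in the others of each suspension. At 10 CPM or more, at least 4 of the 7 were found in 9 of 41 and 9 of 48 AST4 cells, or 21.95% and 18.8%. In the other astrocytes 4 and 8 cells did so, or 1.14% and 2.11%. None of the 7 was found in 29.3% and 16.7% of AST4 cells and in 59.4% and 53.4% of the others. The 18 AST4 cells lay on 13 of 16 plates, with at most 3 on a plate. The part that dissociation, sorting or the animals' state had in these transcripts was not tested.

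**Figure D4:**
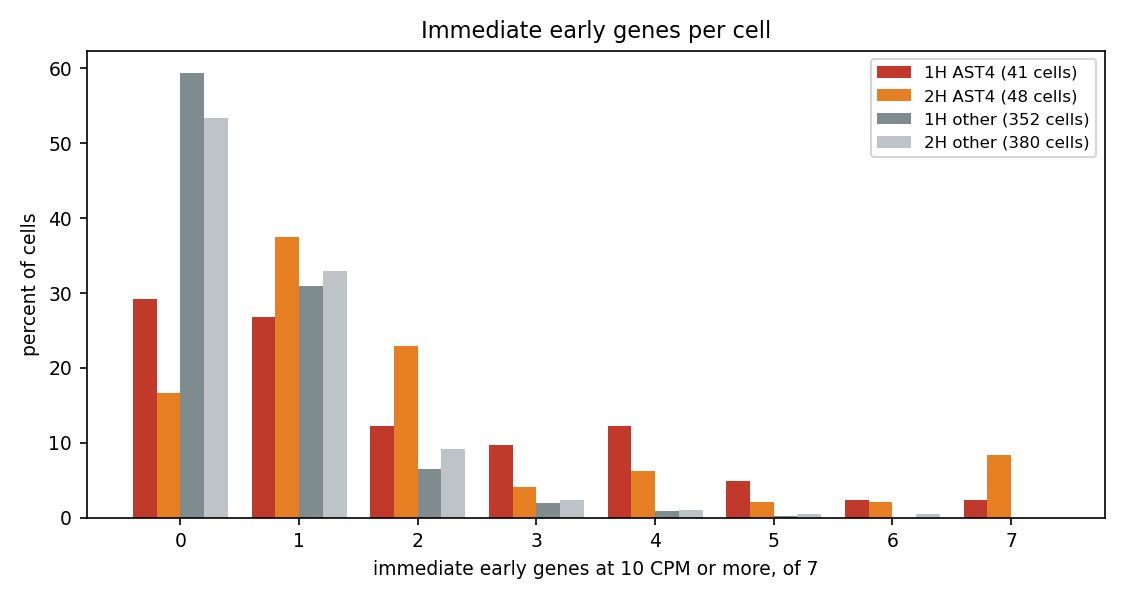
Bars give the percent of cells (y axis, from 0) with 0 to 7 of the genes Fos, Jun, Junb, Egr1, Ier2, Btg2 and Dusp1 at 10 CPM or more (x axis), for AST4 (red 1H, orange 2H) and other astrocytes (dark grey 1H, light grey 2H). All 7 were found in 1 AST4 cell of 1H and 4 of 2H, and in 0 of the others.

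The other variable genes named by the rule were of 3 kinds. Pbk and Racgap1, genes of mitosis, were at 5094 and 2535 CPM in the dividing cell of 1H and at 1193 and 2515 CPM in that of 2H, and had a count in 3 and 5 AST4 cells in all. Apoe, Cst3 and Aldoc were among the most abundant genes, where the expected spread is small, and stood at 4732 CPM for Apoe and 0.47 CPM for Aldoc in the dividing cell of 1H. Olig1, Ccng1 and 2010315B03Rik were each counted in at most 12 AST4 cells of a suspension.

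A principal component analysis of 3124 genes, run within each suspension, looked for variation common to both. With all cells the closest pair was the first component of 1H and the first of 2H, with a correlation of loadings across genes of 0.31, and the next closest pair had 0.22. Without the 3 cells with markers of another type it was 0.32, and the next closest pair had 0.14. These components held 4.13% of the variance in 1H and 3.53% in 2H. Genes are not independent replicates, and the correlation is a description. Without the 2 dividing cells as well, it was 0.26, between the second component of 1H and the first of 2H.

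Ccnd2 had the largest shared loading at one end, next to Mfap2, a matrix protein of microfibrils, Eif4a1 and Tmsb4x. Of 82 ribosomal protein genes in the analysis, 78 loaded towards the Ccnd2 end in both suspensions, beside 29.9% of all 3124 genes. Htra1, a secreted protease, Chst2, a sulfotransferase, Bcan, the proteoglycan brevican, and Gpc5, a glypican, lay at the other end. Of 27 mature astrocyte genes, 25 loaded towards that end in both and 0 towards the Ccnd2 end, beside 29.8% of all genes. Of the stem cell list, 8 of 15 members loaded towards the mature end and 3 towards the Ccnd2 end, beside 29.8% and 29.9% of all genes.

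Levels at the 2 ends are given as a description, since the component was built from these cells and most of these genes. The dividing cells are included. In the 13 cells of 1H nearest the Ccnd2 end, ribosomal protein genes summed to a median of 16320 CPM, against 7060 CPM in the 13 cells at the other end. In 2H the medians of 15 cells at each end were 15594 and 6580 CPM. Genes of mature functions summed to 82982 against 123269 CPM in 1H, where other astrocytes had 165827 CPM, and to 83064 against 121189 CPM in 2H, where they had 169268 CPM. Ccnd2 was counted in 11 of 13 cells at the one end and in 4 of 13 at the other in 1H, and in 12 and 4 of 15 cells in 2H.

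Frzb had a count in 7 of 13 cells at each end in 1H, and in 8 of 15 cells at the Ccnd2 end and 10 of 15 at the other in 2H. Hmgn2 medians at the Ccnd2 end and the other were 425.7 and 151.3 CPM in 1H and 401.96 and 164.98 CPM in 2H. Those of Gfap were 1845 and 939 CPM in 1H and 2016 and 1104 CPM in 2H. Emx1 was counted in 6 of 13 cells at each end in 1H, and in 10 and 5 of 15 cells in 2H. Of the 5 markers, 3 loaded towards the Ccnd2 end in both suspensions and 1 towards the other, beside 29.9% and 29.8% of all genes. The dividing cell had the highest score towards the Ccnd2 end in both suspensions. Across cells the score had a Pearson correlation with log2 gene counts of -0.10 in 1H and 0.23 in 2H, and with the percentage outside exons of -0.41 and 0.22. Since the score is built from these cells' own counts, no test was made.

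**Figure D5:**
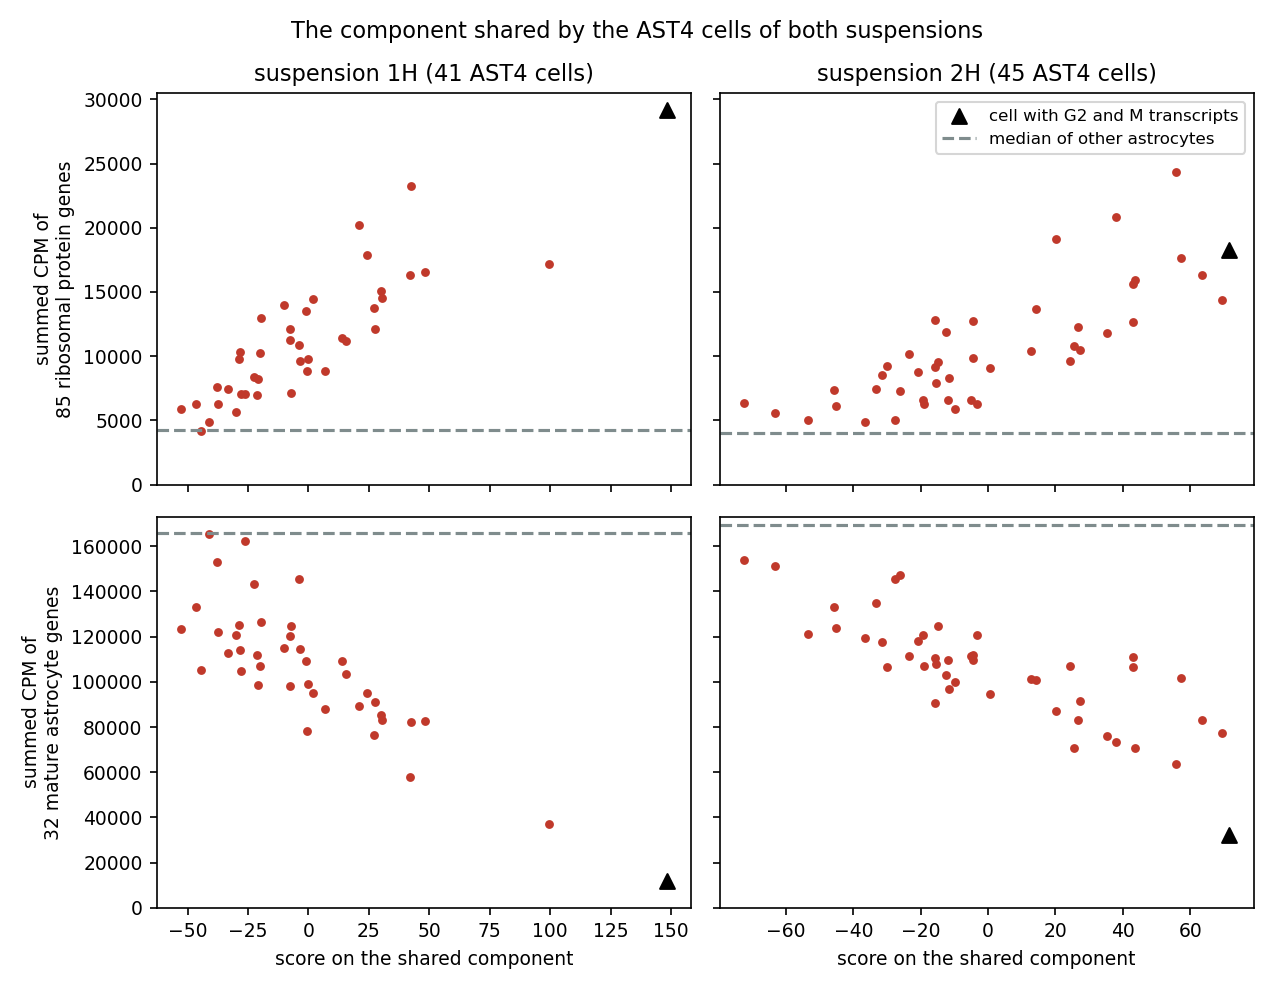
Each point is an AST4 cell (41 in 1H, 45 in 2H), placed by its score on the shared component (x axis, without unit) and by the summed CPM of 85 ribosomal protein genes (top) or 32 mature astrocyte genes (bottom). Black triangles are the 2 cells with G2 and M transcripts and dashed lines the median of other astrocytes. Cells with high scores hold more ribosomal and less mature astrocyte transcript in both suspensions, and most of these genes are among those the score is built from.

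Last, AST4 of 1H and 2H were compared with each other, as 1 suspension each and without a test. Of 9219 genes averaging 10 CPM or more, 3260 (35.4%) differed at least 2-fold. Most genes at the top of the list towards 2H came from the 2 Ptgds-high cells: Apod, Dcn, Col1a1, Slc6a13, Slc6a20a, Igfbp2, Olfml3, Vtn and Bmp7. Apod, for instance, had 0 reads in 1H and a mean of 1153 CPM in 2H, from cells with 16540 and 38503 CPM.

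Towards 1H the leading genes were counted in few cells. Bop1, a ribosome biogenesis factor, was counted in 8 of 41 cells of 1H and 1 of 48 cells of 2H, at 120.1 and 0.014 CPM. Eif1ad was also counted in 8 and 1 cells, at 63.97 and 0.014 CPM. Ccl2, a chemokine, came from a single cell of 1H with 5191 CPM. In the other astrocytes Bop1 and Eif1ad had like levels in both suspensions, 27.8 and 32.5 CPM and 19.2 and 20.1 CPM.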

How the data were processed

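The deposited files hold raw counts per gene for each cell, which the authors made by mapping paired reads with STAR 2.5.2b to GRCm38.p5 with the ERCC sequences, after FastQC 0.11.4, and counting with HTSeq, per the study's methods and the submitters' processing notes. Reads carried no molecular tags. Counts of genes were scaled to CPM in each cell, with ERCC and summary lines left out, and averaged over the cells of a suspension. Cell types came from the study's list, which rests on clustering of the same data, and 1 cell had no file used here. The members and gene lists were chosen with earlier results of these data known. Cells of a suspension share mice and preparation, so n is 2 suspensions. The sign-flip p is 0.5 whenever both differences point the same way, whatever their size or spread. No doublets were called, since cells were sorted singly into wells. AST4 cells had 695918 to 3021112 gene counts.

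The text names the markers, the 20 most abundant genes per length off the mitochondrial genome, the 15 higher and 10 lower called genes with the largest smaller ratio and a count in 25% of cells of the higher group, the 15 most variable genes, the leading genes between suspensions and members of the lists. Ratios to groups with 0 counts used a floor of 3 counts. Genes were placed with a GRCm38 annotation, which matched 49412 of 49671 identifiers. Component analysis used log2(CPM + 1) with a pseudocount of 1 for genes counted in 25% of cells. Tables of the whole series were not used. Python 3.11.15, numpy 2.4.6, scipy 1.17.1, pandas 2.3.3, R 4.3.3 and edgeR 4.0.16 (TMM factors only) were used, and the calculations were tested on simulated data, in which the 2-fold rule also called some unchanged genes and missed some lower ones, so single calls carry no error rate. The 3 cells with markers of another type, the fibroblast and ribosomal lists and the set of 7 immediate early genes were chosen after seeing the data. Some genes that the naming rule selects are not reported here.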

Additional observations from a re-analysis of the deposited data

How the results depend on the processing

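Genes higher and lower in AST4, 11.8% and 6.44% of those compared, became 6.79% and 11.1% under TMM, 7.59% and 9.67% under median-of-ratios size factors, 12.8% and 11.4% of a larger set with a filter at 1 CPM, 10.3% and 6.09% of a smaller set at 50 CPM, 21.8% and 10.8% at 1.5-fold, and 3.66% and 2.51% at 4-fold. With 1 suspension left out, 26.3% to 26.4% were higher and 12.9% to 14.7% lower, since a call then needs 1 suspension only. Genes differing between the suspensions numbered 6300 with a filter at 1 CPM, 736 at 50 CPM, 4962 at 1.5-fold and 1371 at 4-fold, against 3260. The 47 variable genes, 1.13% of those compared, became 2.22% by the variance of log2 values and 0.846% of a larger set with a filter at 10 CPM, which held 26 of the 47. With either suspension left out they became 5.02%, a share fixed by the top 5% rule, since a call then needs 1 suspension only. The 82 widely detected genes, 0.165% of gene identifiers, became 0.260% at 90% of cells and 0.0423% at all cells. Leaving out either suspension left 1 cell with G2 and M transcripts. Without the 3 cells with markers of another type, an alternative chosen after seeing the data, 1056 genes were higher, 600 lower and 42 variable.

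The fit without the replicate block does not pair AST4 with the other astrocytes of its own suspension. Its differences equal the main ones by arithmetic, at 470 genes, 0.39 in the log2 gene to ERCC ratio and -1.67 percentage points outside exons. Only the test differs, with an exact permutation p of 0.333 for the ratio and the percentage. None of these 3 measures changed direction under any alternative run. With 2 suspensions no p-value here can pass 0.05, and of genes at 10 to 50 CPM 49.8% differed at least 2-fold between the AST4 cells of the 2 suspensions.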
